A study of Mus musculus with 12 samples.

Results

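The genes described here are the cytosolic ribosomal protein genes of mouse liver cells. They were chosen by symbol: Rpl or Rps followed by digits and the usual suffix letters, together with Rplp0, Rplp1, Rplp2 and Rpsa. Of the 22519 genes listed at both stages of the study, 83 met this rule, 32 for proteins of the small (40S) subunit and 51 for proteins of the large (60S) subunit. The rule takes in 6 paralogs (Rpl3l, Rpl7l1, Rpl10l, Rpl22l1, Rpl39l and Rps27l). It leaves out Fau, which encodes a ribosomal protein fused to a ubiquitin-like protein, as well as Rack1 and Rpl36al.

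Single cells were captured with 10x Genomics chemistry from livers of embryos at E16.5 and of pups at postnatal day 3 (P3), all from crosses between Jag1Ndr/+ parents. Ndr (Nodder) is a missense allele of Jag1, which encodes a Notch ligand, and homozygotes serve as a mouse model of Alagille syndrome. Each stage was labelled with Jag1+/+ (wild type), Jag1Ndr/+ (heterozygous) and Jag1Ndr/Ndr (homozygous) animals, 2 of each, and P3 homozygotes were picked by their jaundice. The labels name no treatment. Only the embryonic livers were digested with TrypLE added. The 12 matrices held 9 separate libraries. At E16.5 there were 5: Jag1+/+ replicate 1, Jag1Ndr/+ replicate 1, Jag1Ndr/Ndr replicates 1 and 2, and 1 library deposited under both the second Jag1+/+ and the second Jag1Ndr/+ label, called the shared library below. At P3 there were 4. Libraries A and B carried Jag1+/+ labels, but their barcodes also stood in matrices with other labels, so that their genotype is unclear. Library C was the first Jag1Ndr/Ndr matrix without the 19927 barcodes it shared with library A, and library D carried only a Jag1Ndr/+ label.

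A ribosome joins a small subunit, which reads the messenger RNA, to a large subunit, which forms the peptide bonds, and each of its proteins is needed in about equal number. The genes lie scattered over the genome, and most of their messengers begin with a run of pyrimidines, the 5′ terminal oligopyrimidine (TOP) tract, through which growth signals control their translation. The fetal liver is the main site of red cell formation before birth, and dividing red cell precursors need many ribosomes. Loss of 1 copy of several of these genes causes Diamond-Blackfan anemia, in which red cell formation fails.

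The start sites of some members are shown first because the tract is the sequence feature the family is known for. RefSeq promoters on GRCm38.p6 were found for 63 of the 83 members. A run of at least 7 bases that were each C or T, on the coding strand and within 20 bases of the start, stood in 38 of the 63 (60.3%), against 27.5% of 27025 genes with a promoter. Each window below runs from 20 bases before the start to 10 bases from it on, and capitals mark its longest C or T run. The first is Rpl7a at chr2:26910787-26910816 on the plus strand, then Rpl15 at chr14:18270977-18271006 on the minus strand, Rps10 at chr17:27635235-27635264 on the minus strand, Rpl22l1 at chr3:28805488-28805517 on the plus strand, Rpl27 at chr11:101442225-101442254 on the plus strand and Rps12 at chr10:23787200-23787229 on the minus strand.
Rpl7a: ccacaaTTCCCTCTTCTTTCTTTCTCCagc
Rpl15: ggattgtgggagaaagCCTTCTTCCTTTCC
Rps10: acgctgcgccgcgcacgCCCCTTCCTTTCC
Rpl22l1: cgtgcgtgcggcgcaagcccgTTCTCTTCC
Rpl27: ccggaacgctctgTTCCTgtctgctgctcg
Rps12: TTaaataccgtcatgcggccaccgccggcc
The run was 21 bases long in Rpl7a, 14 in Rpl15 and 13 in Rps10, and only 5 in Rpl27 and 2 in Rps12, so that the annotated starts of the members were not alike in this feature. The letters CCGGAAG, the core read by ETS factors, stood on either strand in the 300 bases from 250 before to 50 after the start in 41.3% of the members and in 9.93% of all genes. AAGATGGC, the core of the YY1 site, stood in 9.52% against 3.19%. TATAAA was found in 11.1% of members and 15.7% of all genes.

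The 3′ ends are shown next because 10x libraries count molecules from there, and because the 3′ ends of several members described below also occur in another gene of the lists. The last 30 coding bases are printed 5′ to 3′ with the stop codon in capitals, from GENCODE M21 on GRCm38. Rps12 ends at chr10:23785211-23785240 on the minus strand, Rpl10 at chrX:74273038-74273067 on the plus strand, Rps27 at chr3:90212725-90212934 on the minus strand across an intron, Rpl9 at chr5:65388573-65388602 on the minus strand and Rpl36a at chrX:134587565-134587957 on the plus strand across an intron. Rpl29 ends at chr9:106431420-106431449, Rpl21 at chr5:146835924-146835953 and Rpl27 at chr11:101445458-101445487, all on the plus strand.
Rps12: atcgaggaatacttcaagtgcaagaaaTAA
Rpl10: ctggacaagtggagagccctgcattccTGA
Rps27: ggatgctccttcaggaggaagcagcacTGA
Rpl9: aagggaactgtgcagcaggctgacgagTGA
Rpl36a: aagagaaagggccaagtgatccagttcTAA
Rpl29: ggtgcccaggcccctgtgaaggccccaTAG
Rpl21: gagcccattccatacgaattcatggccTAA
Rpl27: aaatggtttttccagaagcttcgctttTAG
These bases occurred unchanged in 20 other annotated genes for Rps12, 24 for Rpl21, 14 for Rpl29, 5 each for Rpl9, Rpl10, Rpl27 and Rpl36a, and 1 for Rps27. Only some of those genes were among the features counted. The copy of the Rps12 end in both gene lists was Rps12-ps3, that of Rpl10 was Rpl10-ps3, that of Rpl9 was Rpl9-ps6, that of Rps27 was Rps27rt and that of Rpl21 was BC004004. The copy of the Rpl27 end, Rpl27-ps3, was in the E16.5 list only. Over the last 300 transcript bases, 44 of the 83 members (53.01%) shared more than 50% of their 50-base windows with another annotated gene, against 7.69% of 21578 other genes. Counting only partners in the P3 list, 8 of 83 members passed that share, 9.64% against 7.11% of the other genes.

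After filtering, the libraries held 15024 to 29034 barcodes and 72753365 to 250981319 UMIs (unique molecular identifiers, each 1 counted molecule) on the genes of both stages. The cells were clustered with the members left out, and clusters were named from marker genes. Hepatocyte-like, early and late erythroid-like, B lymphoid-like, neutrophil-like, promyelocyte-like, monocyte-like, macrophage-like, basophil and mast-like, megakaryocyte-like, endothelial-like and mesenchymal-like cells were found at both stages, and these rebuilt names may differ from the authors'. Scrublet marked 2.12% to 34.3% of a library's barcodes as doublets, and these stayed out of the classes. Stage could not be told apart from the other things that changed with it: the digestion, the gene list (31053 genes at E16.5 and 22597 at P3) and the 10x software version in the file headers (3.1.0 and 3.0.2).

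The members together took a larger share of all UMIs at P3 than at E16.5. The share was 11.2% in Jag1+/+ replicate 1, 13.2% in the shared library, 9.99% in Jag1Ndr/+ replicate 1, and 9.45% and 11.2% in the Jag1Ndr/Ndr libraries. At P3 it was 16.9% in library A, 19.7% in B, 17.0% in C and 17.3% in D. The means were 11.01% ± 1.45 (SD, n = 5) and 17.8% ± 1.31 (SD, n = 4), and the stages did not overlap. Globin moved the other way, from 45.4% ± 9.96 of UMIs at E16.5 to 21.0% ± 3.48 at P3. With globin left out of the total the share of the members was 20.3% ± 1.195 and 22.4% ± 0.78, and the ranges, 18.8% to 22.1% and 21.8% to 23.4%, overlapped. In sums over a whole library, fewer cells of a type and less RNA per cell cannot be told apart. The small subunit's part of all member UMIs was 46.5% ± 0.27 (46.1% to 46.8%) at E16.5 and 44.7% ± 0.78 at P3 (43.6% to 45.4%), with no overlap. Rpl27, Rpl41, Rplp1 and Rpl7a, of the large subunit, shared 3′ windows with genes listed at E16.5 only. In CPM, the UMI count scaled to a common total, their means at E16.5 were 255.8, 2576, 1876 and 621. At P3 they were 1175, 5878, 4350 and 710.2. Rps10, of the small subunit, shared windows with a gene listed at P3 only and went from 1728 to 849.4 CPM. The part of this in the small subunit's fall was not tested.

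The share differed far more between cell classes than between libraries of a class. At E16.5 basophil and mast-like cells had the highest mean, 23.7% ± 1.33 (n = 5), followed by early erythroid-like cells at 22.5% ± 2.89, promyelocyte-like cells at 21.7% ± 1.66 and monocyte-like cells at 20.9% ± 1.38, and the libraries of these 4 classes overlapped from each to the next. With finer clustering (Leiden resolution 2) the basophil and mast-like mean was 21.4%, its cluster held 277 cells where the class had held 1541, and a cluster of 1283 cells led by Hmga2, H2afy and Cd34 stood apart from it at 25.6%. With globin in the total, monocyte-like cells stood clear of B lymphoid-like cells at 18.1% ± 0.70. Endothelial-like cells (16.4% ± 1.03), megakaryocyte-like cells (16.3% ± 2.69), macrophage-like cells (12.8% ± 0.78), mesenchymal-like cells (12.4% ± 1.21) and hepatocyte-like cells (11.6% ± 0.46) overlapped each neighbour in this order. Neutrophil-like cells at 6.97% ± 0.95 lay below all of them, and late erythroid-like cells at 5.93% ± 2.07 overlapped them. Among the named classes at P3, early erythroid-like cells led with 33.1% ± 2.89 (n = 4), above every library of promyelocyte-like cells at 26.4% ± 1.99. Late erythroid-like cells were again last with 2.17% ± 0.59, below every library of neutrophil-like cells at 7.65% ± 0.63. An unnamed P3 cluster of 1135 cells led by Hmga2, Cd34 and H2afy was at 28.9% (27.6% to 30.4%). Its libraries overlapped those of both early erythroid-like and promyelocyte-like cells. With globin left out of the total neutrophil-like cells had the lowest mean at both stages, 8.40% and 8.08%, and late erythroid-like cells stood at 20.5% and 9.41%. At E16.5 monocyte-like and B lymphoid-like cells then overlapped, at 22.5% to 26.2% and 21.1% to 25.1%. Hepatocyte-like cells at E16.5, at 12.8% to 15.4%, then lay below mesenchymal-like cells at 19.0% to 21.8%. With the main clustering, T and NK-like cells (24.0% ± 1.82) and conventional dendritic-like cells (22.5% ± 1.27) were named at P3 only. Finer clustering also named 126 T and NK-like cells at E16.5, at 20.4%. These levels are a description, since the classes were made from the same cells.

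**Figure D1:**
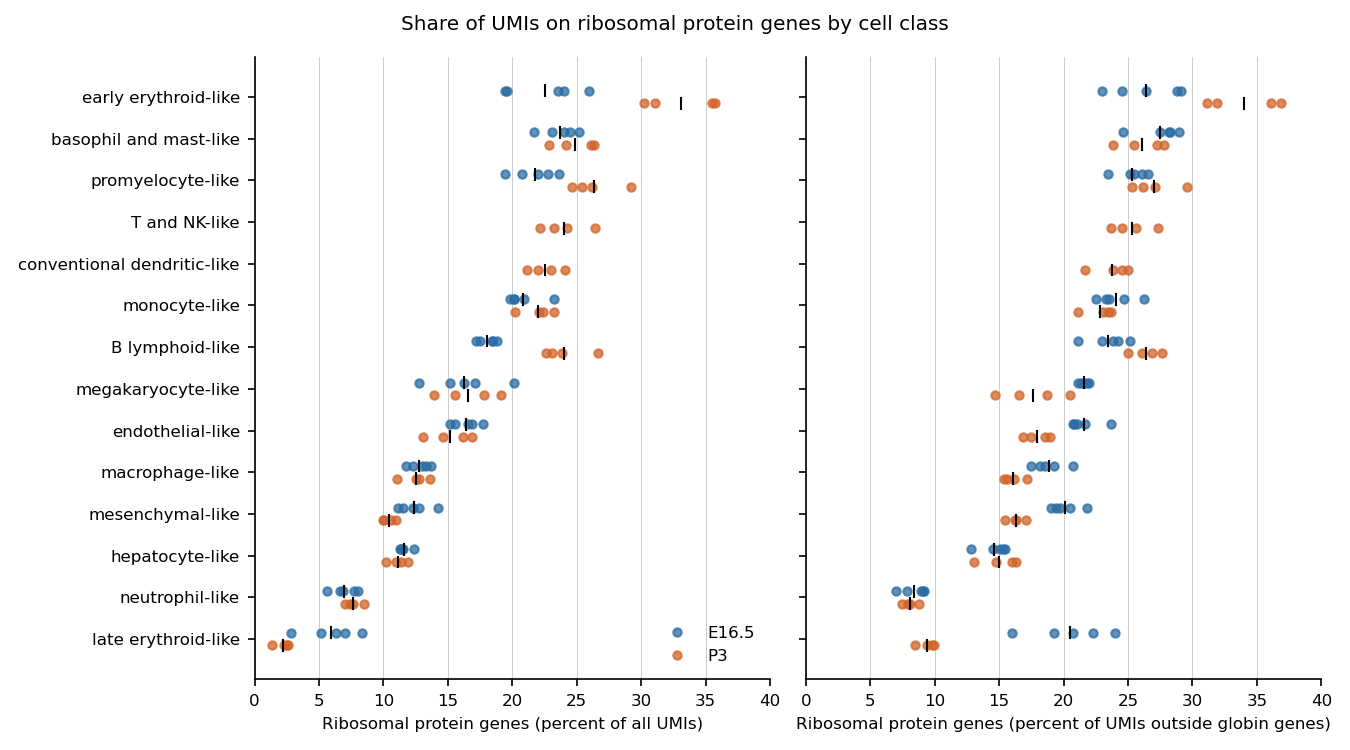
Share of UMIs on the ribosomal protein genes (x axes, percent) in each cell class (y axis), with each point 1 library, blue for E16.5 and orange for P3 as the legend gives, and a black bar at the mean. The left panel takes all UMIs and the right panel leaves globin out, and early erythroid-like libraries lie at 30.2% to 35.7% at P3 against 19.5% to 26.0% at E16.5 in the left panel.

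Between the stages, the share rose in the early erythroid-like class and fell in the late one, as these classes were drawn here. Left out of both were an unnamed cluster of 12344 cells at E16.5 led by Tfrc, Rhd and Icam4, genes of red cell precursors, at 10.7%, and 1 of 5456 cells at P3 led by Hemgn, Alad and Ctse at 17.65%. In early erythroid-like cells the share was 23.6%, 19.5%, 24.0%, 26.0% and 19.6% in the E16.5 libraries and 35.7%, 35.5%, 31.1% and 30.2% in P3 libraries A to D. Every P3 library was above every E16.5 library, and this was so also with globin left out, at 31.1% to 36.8% against 23.0% to 29.1%. In late erythroid-like cells the share was 5.14%, 8.30%, 6.29%, 2.84% and 7.05% at E16.5 and 1.32%, 2.62%, 2.25% and 2.499% at P3. The E16.5 libraries were all higher, also with globin left out, at 16.02% to 23.99% against 8.48% to 9.94%. Their globin share was 71.5% ± 8.18 and 77.2% ± 4.98, and their median UMIs per cell were 5173 to 9618 and 2352 to 5182; the part of these in the result was not tested. With finer clustering, the late erythroid-like means were 5.68% at E16.5 and 6.43% at P3 and the stages overlapped, so that the fall depends on where the class is drawn. Early erythroid-like cells, at 18.75% and 32.6%, still did not overlap, but the finer classes were not drawn alike at the 2 stages. At E16.5 the early class held a cluster of 7338 cells led by Tfrc at 11.05% and 1 of 2595 cells at 16.3%. At P3 a cluster of 3167 cells at 20.9% and another of 2320 cells at 8.99%, both led by Hemgn, were in the late class. B lymphoid-like cells (18.1% ± 0.70 and 24.0% ± 1.80) and promyelocyte-like cells were higher at P3 in every library, and mesenchymal-like cells (12.4% ± 1.21 and 10.4% ± 0.48) lower, but with globin left out the first 2 overlapped. With globin left out, 3 further classes were lower at P3 in every library: endothelial-like (21.6% ± 1.23 and 17.9% ± 0.95), macrophage-like (18.8% ± 1.24 and 16.1% ± 0.82) and megakaryocyte-like cells (21.6% ± 0.34 and 17.6% ± 2.53). The promyelocyte-like class at E16.5 pooled a cluster of 1290 cells at 8.26%, with Ltf, Olfm4 and Chil3 among its leading genes, with 1 of 1778 cells at 23.2% to 26.2%. At P3 it was a single cluster at 24.6% to 29.2%, which overlapped the latter. The B lymphoid-like class at E16.5 held 5749 cells led by Vpreb1 and Igll1 at 19.5% and 2477 led by Igkc and Ighm at 13.9%. At P3 it held 1429 cells led by Igll1 and Vpreb1 at 28.8% and 4053 led by Igkc and Ms4a1 at 24.1%. The rest at P3 were 4386 cells led by Il7r and Ebf1 at 23.2% and 1195 led by Iglc1 and Car1 at 17.2%. The mesenchymal-like stages overlapped with doublets kept and with finer clustering. The P3 class was led by Ins2 and Ins1, the insulin genes of the pancreas, before the collagens, and finer clustering split it into 364 cells led by Ins2, Ins1 and Iapp at 6.30% and 117 cells led by Col1a1 and Col3a1 at 16.55%. Hepatocyte-like cells overlapped between the stages, at 11.3% to 12.4% in the embryos and 10.2% to 11.9% in the pups, but with finer clustering every P3 library was higher, with means of 11.4% and 14.2%.

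Most members rose and fell together from class to class, with a few exceptions. Across 60 points at E16.5, each 1 class in 1 library, the CPM (the UMI count scaled to a common total for every library or class) of a member correlated with the sum of the other members with a median Pearson r of 0.97, and 70 of 83 members had an r over 0.9. At P3 it was 0.98 over 56 points, with 63 of 83. The points share libraries and depth, so this is a description. The total share of the members differed widely between classes, so a high r does not show that their proportions were fixed. As a share of all member UMIs at P3, the highest class over the lowest was 1.98 for Rplp0 and 1.16 for Rps7. The lowest at E16.5 were Rpl3l (−0.16), Rpl10l (0.03), Rpl39l (0.29) and Rpl29 (0.48). At P3 Rpl3l and Rpl10l were again lowest, followed by Rpl21, Rps12, Rpl10, Rps27, Rpl29 and Rpl9 with 0.26 to 0.38.

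Among members with higher counts, Rpl41, which encodes a very short protein of the large subunit, varied most over classes as a share of all member UMIs. It took 3.71% of them in late erythroid-like cells and 1.57% in basophil and mast-like cells at E16.5, and 6.94% in late erythroid-like against 2.72% in conventional dendritic-like cells at P3. Rps29, a small zinc-binding protein of the small subunit, was highest in macrophage-like cells at both stages, 2.57% and 2.62%. It was lowest in megakaryocyte-like cells at E16.5 (1.50%) and in early erythroid-like cells at P3 (1.12%). Rps27a, made as a fusion with ubiquitin, was highest in neutrophil-like cells at both stages, 4.26% and 3.12%. The paralog Rpl3l, best known from muscle, was highest in neutrophil-like cells and the paralog Rpl39l, best known from testis, in macrophage-like cells, but these highest shares at E16.5 were only 0.00889% and 0.00499% of member UMIs.

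Between the stages, single members moved both ways. edgeR's quasi-likelihood test on whole-library counts, with Benjamini-Hochberg adjustment over all 14504 genes tested and a threshold of 0.05, called 19 of 82 members higher and 12 lower at P3. Of all genes tested, 27.6% were called higher and 26.4% lower, 54.0% in either direction, and of the members 37.8% were called. The median log2 fold change of P3 over E16.5 was 0.12 over the members and 0.02 over all genes. From here on ± is the SD over libraries for CPM and shares and the SE for log2 fold changes, with n = 5 at E16.5 and n = 4 at P3. These folds rest on TMM scaling, which sets the bulk of genes level. On plain library totals the median of all genes was 0.61 and that of the members 0.73, and 47 members were called higher and 3 lower. With totals that left out globin and the members, 30 were higher and 10 lower. The calls were 12 higher and 9 lower without Jag1Ndr/Ndr replicate 2, 17 and 7 without library D, 12 and 5 without C and D, and 13 and 19 without A and B. The share of all genes called under each of these settings is not given here. These counts therefore show only how the calls depend on the setting. By plain CPM, 44 members had every P3 library above every E16.5 library (background 37.5%), and 2, Rpl22l1 and Rps27l, had every P3 library below (background 5.45%).

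**Figure D2:**
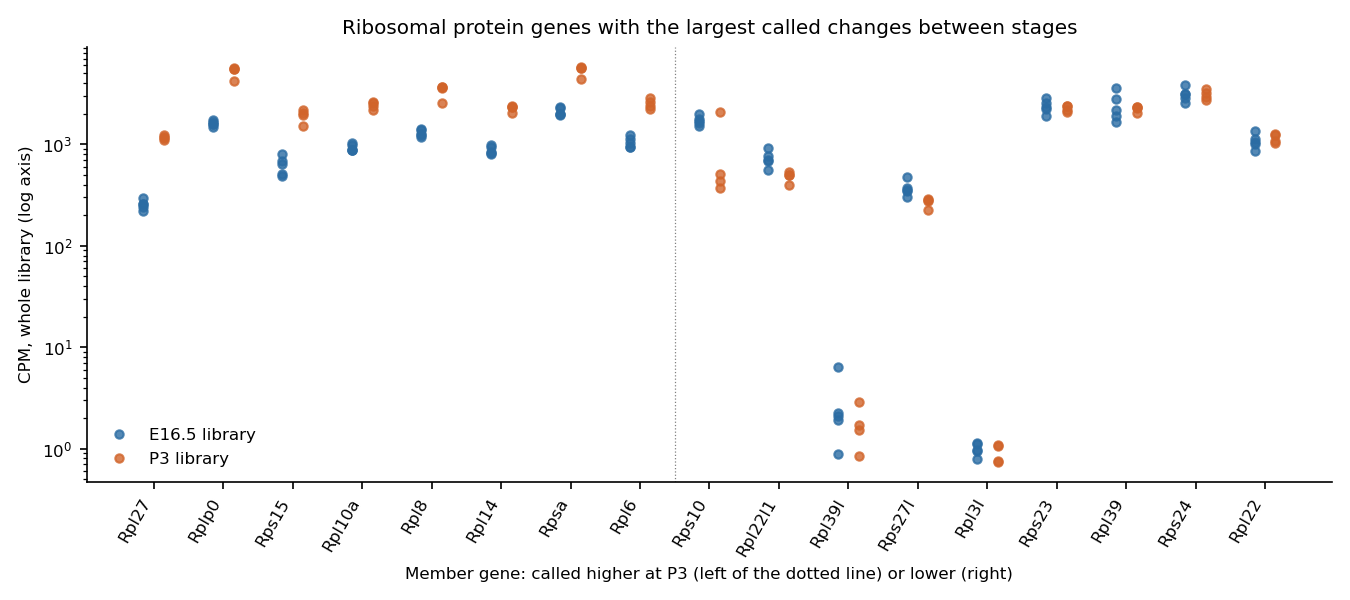
CPM in whole libraries (y axis, log scale) for members with the largest called rises at P3 (left of the dotted line) and the largest called falls (right), with each point 1 library, 5 at E16.5 and 4 at P3. Rpl27 rises from a mean of 255.8 to 1175 CPM with no overlap, while for Rps10 library A, at 2084.5 CPM, stands with the E16.5 libraries.

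Rpl27, of the large subunit and 1 of the genes of Diamond-Blackfan anemia, rose most. It had 241, 299, 256.2, 222 and 261 CPM in the E16.5 libraries and 1195, 1110, 1229 and 1164.5 CPM in P3 libraries A to D. Each P3 library was above each E16.5 library, and the means were 255.8 ± 28.2 (SD, n = 5) and 1175 ± 50.4 (SD, n = 4). The log2 fold change was 1.56 ± 0.17 (SE, edgeR adjusted p = 4.23e-05) and lay between 1.50 and 2.20 in all alternatives run. Its 3′ sequence was also shared differently by stage: 83.3% of its windows stood in another gene of the E16.5 list and 0% in another gene of the P3 list. The part of this in the result was not tested. Other members with over 10% of these windows in genes listed at E16.5 and none in genes listed at P3 were Rplp1 (66.9%, log2 fold change 0.60, edgeR adjusted p = 0.0178), Rpl41 (63.0%, 0.58, edgeR adjusted p = 0.0768) and Rpl7a (70.5%, −0.44, edgeR adjusted p = 0.19). Over the 150 bases on each side of the coding end, Rps7 (39.8%) and Rpl11 (29.1%) also shared windows with genes listed at E16.5 only.

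Of the P stalk, the arm of the large subunit that recruits elongation factors, 2 of 4 members rose and none fell, beside 27.6% of all genes called higher. Its base protein Rplp0 had 1734, 1571, 1476, 1654 and 1580 CPM at E16.5 and 4221, 5569, 5659 and 5539 CPM at P3, with library A lowest at P3 and no overlap. The log2 fold change was 1.06 ± 0.19 (edgeR adjusted p = 8.64e-04). None of the windows of Rplp0 was shared with any annotated gene. Rplp2 had 1353, 1799, 1086, 1060 and 1447 CPM at E16.5 and 1940, 1906, 981 and 666 CPM at P3, so that its P3 libraries lay on both sides of the E16.5 range (log2 fold change −0.57, edgeR adjusted p = 0.12). Rpl12, at the stalk's base, had a log2 fold change of 0.26 (edgeR adjusted p = 0.18).

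In the small subunit, Rps15 had 692, 804, 486, 506 and 641 CPM at E16.5 and 1524, 1929, 2165 and 2043 CPM at P3, with no overlap and a log2 fold change of 1.01 ± 0.14 (edgeR adjusted p = 1.90e-04). Rpsa, which also exists as a laminin receptor, went from 2110 ± 179 to 5406 ± 638 CPM (log2 fold change 0.72). In the large subunit Rpl10a, Rpl8, Rpl14 and Rpl6 rose by log2 fold changes of 0.63 to 0.75, each with every P3 library above every E16.5 library. For Rpl8, left with libraries A and B alone at P3, the adjusted p was 0.0555. Rplp1, Rpl18, Rpl36, Rps7, Rps9, Rpl28, Rps19 and Rpl7l1 were also among the 19.

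Rps10 had the largest called fall, but its P3 libraries did not act alike. It had 1786, 1986, 1621, 1534 and 1712 CPM at E16.5, and 2084.5 CPM in library A, 435 in B, 373 in C and 505 in D. Library A was above every E16.5 library and the other 3 were below all of them. The log2 fold change was −1.62 ± 0.50 (edgeR adjusted p = 0.0189), and it was −1.03 with adjusted p = 0.14 without libraries C and D. Its 3′ windows were shared with the read-through gene RPS10-NUDT3 in the P3 list (66.9%) and with none in the E16.5 list. In the annotation, strand aside, Rps10 overlapped Gm15420, which was listed at E16.5 only. The part of these in the result was not tested.

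Of the 5 paralogs tested, 4 were called lower and 1 higher, beside 26.4% of all genes called lower, and 2 of the 4 were near the floor. The median log2 fold change was −1.08. Rpl22l1, the paralog of Rpl22 that binds RNA in blood cell development, had 693, 930, 701, 553 and 773 CPM at E16.5 and 538, 401, 494 and 501 CPM at P3. The libraries did not overlap, though the gap was narrow (log2 fold change −1.21 ± 0.18, edgeR adjusted p = 2.95e-04). Rps27l, a paralog of Rps27 known as a p53 target, had 372, 476, 358, 304 and 344 CPM at E16.5 and 274, 225, 292 and 283 CPM at P3, again without overlap (−1.08 ± 0.16, edgeR adjusted p = 3.20e-04). Neither shared 3′ windows with another gene of either list. Rpl39l (2.70 ± 2.12 and 1.75 ± 0.86 CPM) and Rpl3l (0.99 ± 0.14 and 0.91 ± 0.18 CPM) were near the floor and overlapped, and the fall of Rpl39l lost its call in 10 of 19 alternatives. Rpl7l1, whose protein acts in ribosome assembly, rose from 35.3 ± 4.49 to 71.1 ± 6.31 CPM (0.38 ± 0.12). In the annotation, strand aside, Rpl7l1 overlapped Gm26904 and Rpl22l1 overlapped Gm33051, both listed at E16.5 only. The part of this in their folds was not tested. Rpl10l, known from testis, was at 0.0687 CPM or less in every library and was not tested.

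The parents of 2 of these paralogs were called lower too, Rpl39 by 0.70 and Rpl22 by 0.52 on the log2 scale, while Rpl3 (0.14), Rpl7 (0.08), Rps27 (−1.29) and Rpl10 (−1.19) did not pass. Rps23 and Rps24, of the small subunit, were called lower by 0.71 and 0.63. Their plain CPM was close at both stages, 2381 ± 356 and 2249 ± 150 for Rps23 and 3117 ± 472 and 3101 ± 352 for Rps24, so that the calls state a fall against the bulk of genes. The CPM of Rpl39 overlapped as well, at 2430 ± 761 and 2247 ± 145. On plain totals Rpl39 lost its call (−0.11, edgeR adjusted p = 0.65) and the fold of Rpl22 (0.09) was above 0, and Rpl22 lost its call in 4 further alternatives of 19. Rps23 lost its call in 1 alternative of 19 and Rps24 in 2, with the folds nearest 0 at −0.082 and −0.0077. Rps15a and Rps25 were also among the 12.

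Of the 18 members linked to Diamond-Blackfan anemia, 4 rose (Rpl27, Rpl18, Rps7 and Rps19) and 3 fell, among them Rps10 and Rps24, with a median log2 fold change of 0.00, beside 27.6% of all genes called higher and 26.4% lower. Rps19, the gene most often affected in that disease, went from 1526 ± 149 to 3223 ± 361 CPM (0.45 ± 0.16, edgeR adjusted p = 0.0378).

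Other genes of protein synthesis were described by the same fit, and their counts stand beside the same 27.6% and 26.4%. Of 34 ribosome biogenesis genes 16 rose and 3 fell, with a median of 0.30. Pes1, a factor of large subunit assembly, rose by 0.79 and Tcof1, a factor of ribosomal RNA transcription, by 0.78, while Myc fell by 0.81 and Rrn3, which brings RNA polymerase I to its promoter, by 0.60. In plain CPM Rrn3 was level, at 13.03 ± 2.78 and 13.08 ± 1.74. Of 20 translation factors and other TOP messengers 6 rose and 5 fell (median −0.04). The initiation factor subunit Eif3f went from 141 ± 18.5 to 574 ± 80.2 CPM and the elongation factor Eef2 from 294 ± 73.7 to 937 ± 109 CPM, while the poly(A)-binding protein Pabpc1 went from 1338 ± 320 to 625.3 ± 108 CPM and Btf3 fell by 0.74. Of 78 mitochondrial ribosomal proteins, which serve the mitochondrion's own ribosome, 26 rose and 11 fell (median 0.15), with Mrpl4 up by 0.87, Mrpl45 up by 0.81, Mrps28 down at −2.07 and Mrpl32 down at −1.05. Of 13 p53 targets, known to respond when ribosome assembly is disturbed, 2 rose (Zmat3, 0.71, and Aen, 0.64) and 3 fell, among them Pmaip1 (−1.52) and Perp (−1.23).

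Within cell classes, members were called in both directions, and differences between classes were not tested. Over 12 classes and 970 pairs of class and member, edgeR called 183 pairs higher and 230 lower at P3, beside 22.0% of all pairs of class and gene in each direction and 44.1% in either. The median was −0.12 over member pairs and 0.00 over all. On plain totals the calls were 246 and 205. Without libraries A and B they were 129 and 321. The share of all pairs called under these settings is not given here, so these counts show only the dependence on the setting.

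**Figure D3:**
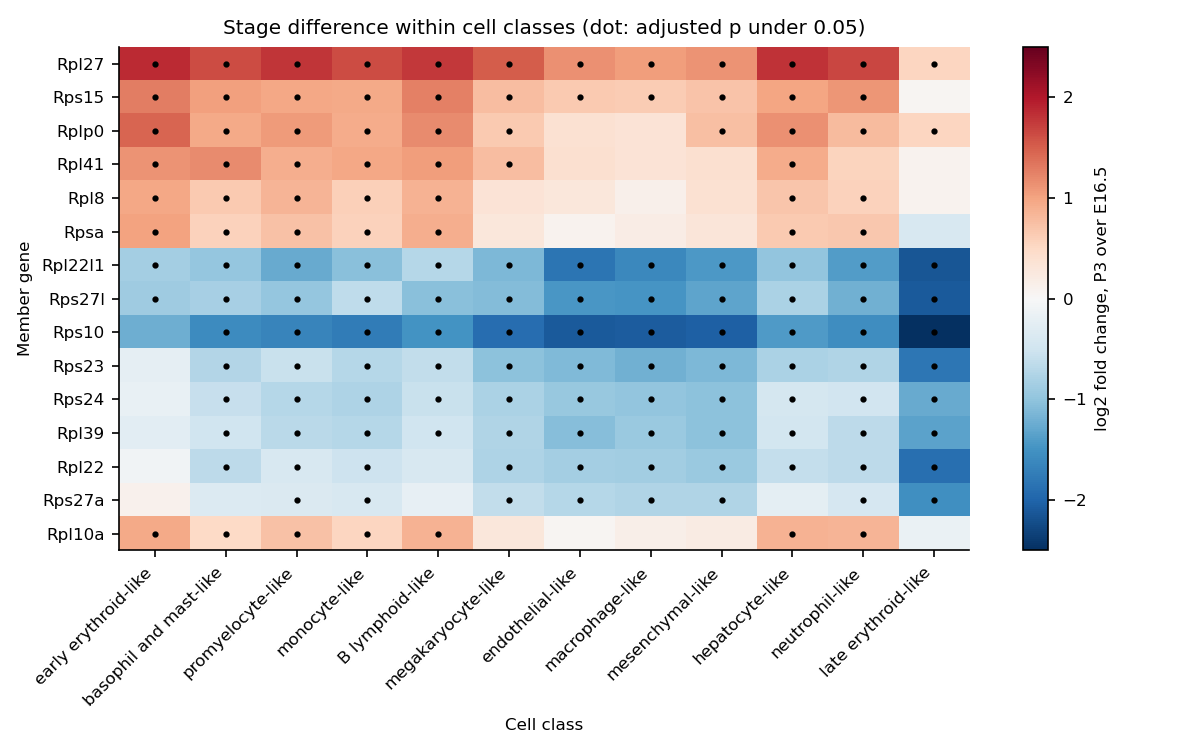
Log2 fold change of P3 over E16.5 (color scale) for the members called in most classes and for Rpl22, Rps27a and Rpl10a (rows) in each of the 12 cell classes (columns), with a dot where the adjusted p was under 0.05. Rpl27 has a dot and a positive value in all 12 columns, Rpl22l1 and Rps27l a dot and a negative value in all 12.

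Rpl27 was called higher in all 12 classes, with log2 fold changes from 0.54 in late erythroid-like cells to 1.86 in early erythroid-like cells. In hepatocyte-like cells it went from 226 to 281 CPM over the E16.5 libraries to 699 to 786 CPM at P3. Rps15 was called higher in 11 classes, Rplp0 in 10, and Rpl41, Rpl8 and Rpsa in 7. Rpl22l1 and Rps27l were called lower in all 12, with folds from −2.14 to −0.70 and from −2.09 to −0.63. In hepatocyte-like cells Rpl22l1 went from 966 ± 95.7 to 404 ± 63.4 CPM and Rps27l from 513 ± 30.3 to 245 ± 20.4 CPM. The classes share libraries and free RNA and are not separate evidence: globin took 20.4% ± 5.59 of UMIs in hepatocyte-like and 38.1% ± 7.43 in mesenchymal-like cells at E16.5. RNA from other cells was not removed, and its part in the calls was not tested. Rps10, Rps23, Rps24 and Rpl39 were called lower in 11 classes. For Rps10 this was 5 classes, and for Rps24 and Rpl39 7 classes, without libraries C and D.

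In early erythroid-like cells 35 of 81 members rose and 2 fell, Rps27l and Rpl22l1, with a median of 0.35. Of all 10371 genes tested in that class, 2294 were called higher and 2417 lower, 45.4% in either direction. Rplp0 went from 3570 ± 977 to 10856 ± 573 CPM (1.46 ± 0.21), Rps15 from 1387 ± 150 to 3690 ± 347 CPM (1.27 ± 0.13) and Rps19 from 3005 ± 434 to 5944 ± 312 CPM (0.83 ± 0.16). Of the 18 Diamond-Blackfan members 6 rose there, Rpl27, Rps19, Rps7, Rps26, Rpl18 and Rpl5, and none fell. Ribosome biogenesis genes rose alongside, 17 of 34 with 1 falling. The globin share of this class was 14.7% ± 4.45 at E16.5 and 2.57% ± 0.57 at P3, and its part in the result was not tested.

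In late erythroid-like cells 50 of 81 members fell and 2, Rpl27 and Rplp0, rose, with a median of −0.96. Of all 10567 genes tested in that class, 2734 were called lower and 2744 higher, 51.8% in either direction. With finer clustering 23 fell and 7 rose, with a median of −0.26. Rpl31 went from 271 ± 108 to 73.1 ± 24.1 CPM (−1.25 ± 0.18) and Rps24 from 1669 ± 601 to 437 ± 84.4 CPM (−1.25 ± 0.22). Rplp0 was called higher (0.53) although its plain CPM was 944 ± 222 and 925 ± 284. Of the Diamond-Blackfan members 12 fell and 1 rose, and of the 34 ribosome biogenesis genes 31 fell and 1 rose. Mitochondrial ribosomal proteins fell in 52 of 77 cases and rose in 2.

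In hepatocyte-like cells 26 of 80 members rose and 9 fell, with a median of 0.13. Of all 10481 genes tested in that class, 2139 were called higher and 2038 lower, 39.9% in either direction. Rplp0 went from 1365 ± 192 to 2525 ± 274 CPM (1.14 ± 0.18) and Rplp1 from 2017 ± 207 to 3601 ± 631 CPM (1.10 ± 0.18), and 3 of the 4 P-stalk members rose. Rps26, which lies at the messenger's exit from the small subunit, rose by 0.97 ± 0.18 and Rps23, at the decoding site, fell from 2305 ± 99.7 to 1114 ± 55.2 CPM (−0.78 ± 0.14). Ribosome biogenesis genes did not rise with them, with 1 of 34 higher and 7 lower, while 37 of 77 mitochondrial ribosomal proteins rose and 3 fell. The hepatocyte-like class pooled unlike clusters. At E16.5 it held 2326 cells with 42.2% globin and 683 led by Alb and Afp with 6.27%. At P3 it held 1102 cells led by Fabp1 and Gsta3 with 42.8% globin. A further 184 cells at P3, led by Alb and Afp, had 1.32% in the 1 library with enough of them. The part of this mixture in the folds was not tested. B lymphoid-like cells had 27 higher and 9 lower of 82. Of all 11493 genes tested there, 2985 were called higher and 2801 lower, 50.3% in either direction.

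Endothelial-like, macrophage-like and mesenchymal-like cells were alike in that most calls were falls, with 29, 30 and 28 members lower and 2, 2 and 3 higher, and medians of −0.34, −0.37 and −0.35. The P3 mesenchymal-like class was the one led by the insulin genes. Of all genes 36.4%, 50.6% and 27.2% were called in either direction in endothelial-like, macrophage-like and mesenchymal-like cells. Called lower were 1824 of 9806, 2666 of 10655 and 1152 of 8466 genes, and called higher were 1744, 2726 and 1150. In endothelial-like cells Rps23 went from 3132 ± 227 to 1776 ± 258 CPM (−1.10 ± 0.16), Rps24 from 5110 ± 392 to 3159 ± 166 CPM (−0.95 ± 0.17) and Rpl39 from 3355 ± 768 to 1898 ± 163 CPM (−1.07 ± 0.17). Megakaryocyte-like cells had 5 higher and 21 lower of 80. Of all 8599 genes tested there, 1673 were called higher and 1707 lower, 39.3% in either direction. Promyelocyte-like cells had 25 higher and 12 lower of 81, and 19 and 16 with finer clustering, where the median went from 0.11 to −0.05. With the main clustering, 2452 of all 10276 genes were called higher and 2413 lower in this class, 47.3% in either direction. Nearest to balance were neutrophil-like cells with 19 higher and 12 lower, monocyte-like cells with 18 and 15, and basophil and mast-like cells with 19 and 13. Of all genes, 2431 of 10540 were called higher and 2345 lower in neutrophil-like cells. In monocyte-like cells 2589 and 2600 of 10410 were called, and in basophil and mast-like cells 2014 and 2240 of 10549. In either direction the shares were 45.3%, 49.8% and 40.3%. With finer clustering monocyte-like cells had 14 higher and 19 lower. The basophil and mast-like class, which at E16.5 then held 277 cells in place of 1541, was not tested there. At P3 the cells led by Hmga2, Cd34 and H2afy were in an unnamed cluster outside this class.

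Jag1Ndr/Ndr could be compared with the other genotypes only at E16.5, with 2 libraries against 3. On simulated data this comparison recovered 46% of genes changed 2-fold, so a change of that size could be missed. edgeR called 0 of 82 members and 0.0% of all 14490 genes, and DESeq2 called 0 members too. At an unadjusted p under 0.05 there was 1 member, Rpl39l (0.88 and 1.93 CPM against 2.12, 6.38 and 2.23; log2 fold change −1.12 ± 0.41, edgeR adjusted p = 1.00). Of all 14490 genes, 139 had an unadjusted p under 0.05. The members' share of UMIs was 9.45% and 11.2% in Jag1Ndr/Ndr and 9.99% to 13.2% in the others, which overlap. Every Jag1Ndr/Ndr library was below all others for 8 members in plain CPM (background 4.74%), among them Rpl11, Rpl8 and Rps27l, and above for 0 (background 1.0%). The median log2 fold change over the members was −0.05.

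Rpl29, of the large subunit, had the second smallest p. It had 279, 60.2 and 41.6 CPM in Jag1+/+ replicate 1, the shared library and Jag1Ndr/+ replicate 1, and 266 and 443 CPM in Jag1Ndr/Ndr. The wild-type library lay between the homozygous ones, so the genotypes overlapped (log2 fold change 1.62 ± 0.73, edgeR adjusted p = 1.00). It was the only member whose E16.5 libraries differed by more than 4 times, of 79 members over 50 CPM (background 0.787%). Rps3a1 had the third smallest p, with 1648 ± 92.4 and 1488 ± 558 CPM (0.35 ± 0.22).

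Within classes edgeR called 0 of 971 pairs, beside 0.0% of all pairs, and DESeq2 called 0. At an unadjusted p under 0.05 there were 19 of the 971, beside 2062 of all 125346 pairs of class and gene. The smallest p-values belonged to Rpl29 in mesenchymal-like cells (443 ± 143 against 150 ± 144 CPM) and in neutrophil-like cells (255.01 ± 129 against 81.1 ± 78.8 CPM), and to Rpl39l in B lymphoid-like cells (4.41 ± 1.05 against 8.71 ± 3.69 CPM). Without Jag1+/+ replicate 1, 7 pairs were called, each of them Rpl29 and each higher in Jag1Ndr/Ndr, so that these calls rest on leaving out the library that overlapped. Without the filter on low counts some pairs were also called, in both directions, and the share of all pairs called there is not given. In hepatocyte-like cells, the parenchymal cells of the liver, the median over the members was 0.12 and 77 of 80 folds were above 0. In late erythroid-like cells it was −0.13, with 7 of 81 above 0. Members of a class share their libraries, and none of these folds was called. The female-specific Xist exceeded the Y-linked Ddx3y in 1 library of each side, the first Jag1Ndr/+ and the second Jag1Ndr/Ndr, and a fit with this as a covariate also called 0.

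**Figure D4:**
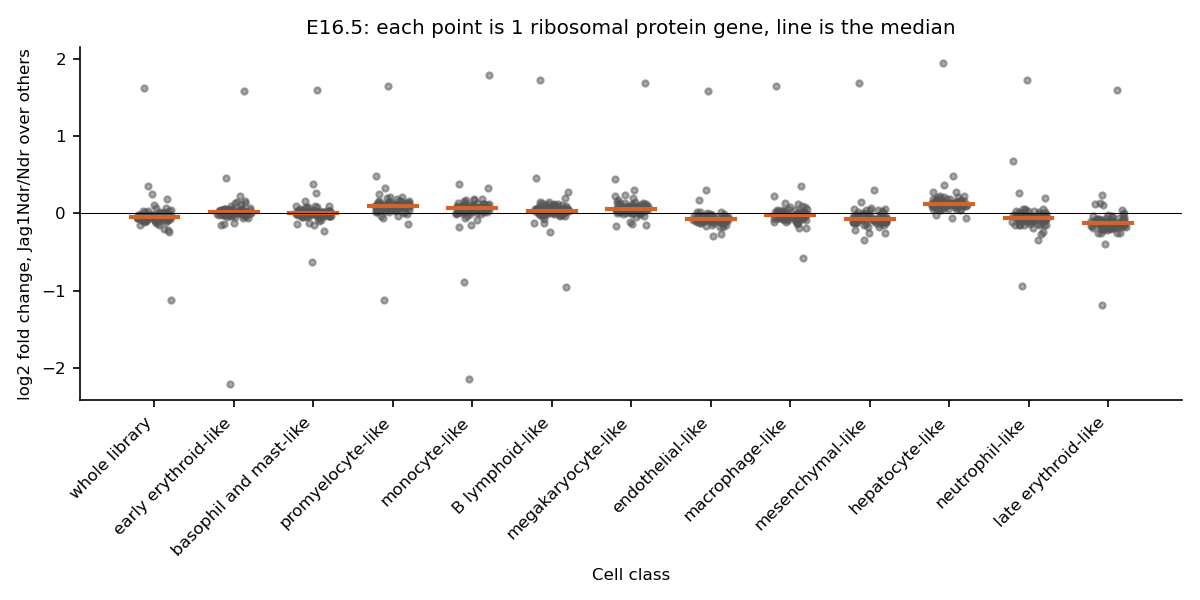
Log2 fold change of Jag1Ndr/Ndr over the other E16.5 libraries (y axis) for each member (points) in whole libraries and in each cell class (x axis), with an orange line at the median. Medians lie between −0.13 in late erythroid-like cells and 0.12 in hepatocyte-like cells, and no point is a called change.

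At P3 the only libraries with a single genotype label were C (Jag1Ndr/Ndr) and D (Jag1Ndr/+), 1 each, so no test was made. Over the 82 members with enough counts, 4 were past 1.5-fold higher in C (background 7.04%) and 9 past 1.5-fold lower (background 10.8%). Rpl21 stood furthest apart, at 618 CPM in C (95% exact Poisson interval 613 to 622) and 13.5 CPM in D (12.6 to 14.3), and Rps12, Rpl26 and Rpl39l were the other 3. Rpl37a, Rpl35, Rps27, Rpl4, Rpl38, Rps29, Rps2, Rps28 and Rps18 were lower in C, with Rps29 at 1406 CPM (1398 to 1413) against 3339 CPM (3326 to 3353) and Rpl35 at 146 CPM (144 to 149) against 307 CPM (303 to 311). The intervals cover counting error only. Past 2-fold, 2 were higher (background 2.29%) and 2 lower (background 3.57%). The median log2 ratio was 0.01 over the members and −0.06 over all genes.

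Among the P3 libraries 6 members were split, high in A and B and low in C and D. Rps12, of the small subunit, had 3742 and 4046 CPM in libraries A and B but 37.6 and 14.9 CPM in C and D. Rpl10, among the last proteins to join the large subunit, had 473 and 1766 CPM in A and B and 8.59 and 6.93 CPM in C and D. Rps27 had 972 and 1631 CPM in A and B and 11.4 and 20.5 CPM in C and D. All 3 were thus nearly missing from C and D, while the E16.5 libraries had 1912 to 2841 CPM of Rps12, 688 to 928 of Rpl10 and 761 to 1569 of Rps27. Rpl9 had 1939 and 2099 CPM in A and B and 54.0 and 50.9 CPM in C and D. Rpl29 had 1112 and 399.9 CPM in A and B and 16.02 and 20.03 CPM in C and D. Rpl36a had 1070 and 1246 CPM in A and B and 195 and 231 CPM in C and D. For each of the 6 the lower of A and B was over 4 times the higher of C and D, by 99.5 for Rps12, 55.0 for Rpl10, 47.5 for Rps27, 35.9 for Rpl9, 20.0 for Rpl29 and 4.63 for Rpl36a.

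Of the 2739 genes over 50 CPM in a P3 library, 8 (0.292%) were split in this way and 0 (0.0%) in the reverse. Among them, outside the members, was Spag7 (38.3 and 59.0 CPM against 7.62 and 7.68). The split was present in the cell classes alike: 83 of 84 pairs of class and member were past 4 times, and the lowest, Rpl36a in late erythroid-like cells, was at 3.09. In hepatocyte-like cells Rps12 had 2610 and 2478 CPM in A and B and 26.7 and 10.9 CPM in C and D. All 4 libraries carried the same 10x software version in their headers.

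**Figure D5:**
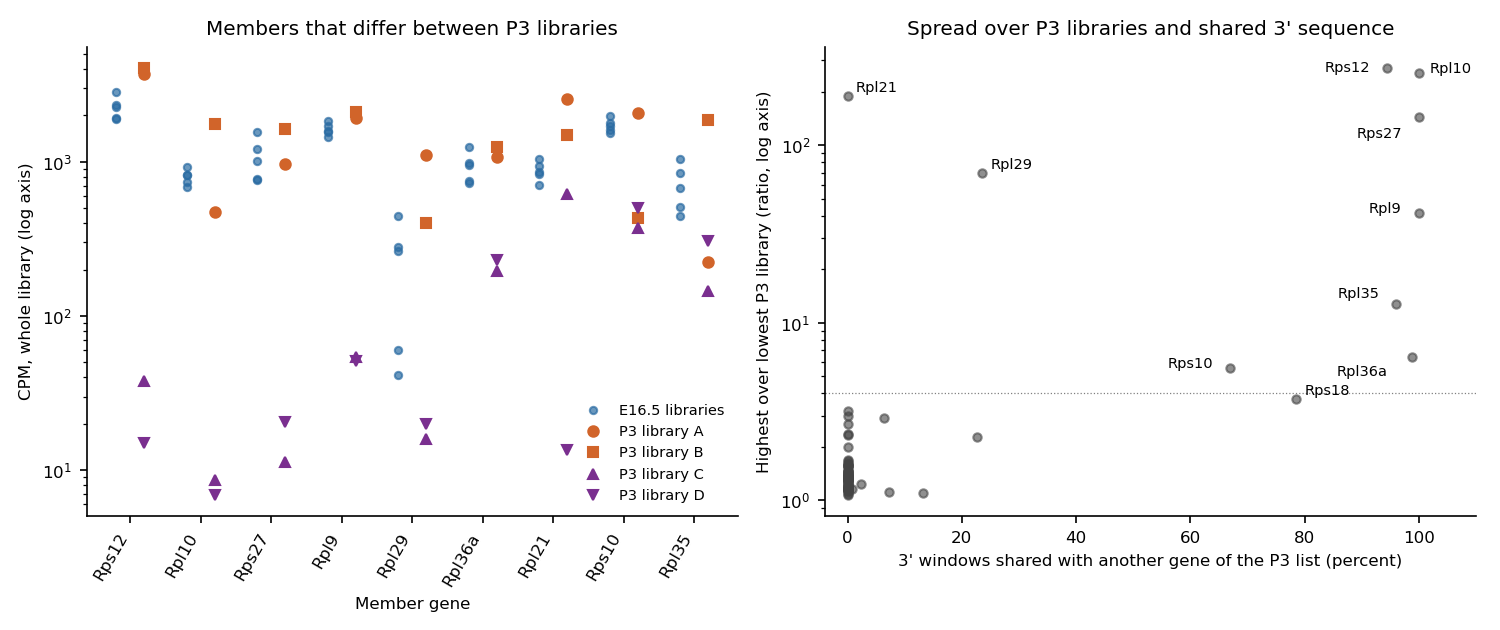
Left, CPM in whole libraries (y axis, log scale) of the members that differ by more than 4 times among P3 libraries, with E16.5 libraries beside P3 libraries A to D (symbols in the legend). Right, highest over lowest P3 library (y axis, log scale) against the percent of 3′ windows shared with another gene of the P3 list (x axis), 1 point a member, with a dotted line at 4; of the 8 members over 50%, 7 lie above the line.

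Another 3 members differed by more than 4 times among P3 libraries, in other orders. Rpl21 had 2553, 1500, 618 and 13.5 CPM in A to D, Rps10 was high in A only as given above, and Rpl35 had 223, 1857, 146 and 307 CPM, high in B only. Together 9 of 80 members over 50 CPM passed this ratio (background 2.04%). Of the 8 members with more than 50% of windows in the last 300 bases shared with another gene of the P3 list, 7 passed the ratio: Rps12, Rpl10, Rps27, Rpl9, Rpl36a, Rpl35 and Rps10. The eighth, Rps18, whose copy is Gm11361, stood just below at 3.73. Of 7 members with a smaller share above 0, 1 passed, Rpl29, and of 65 with none, 1 passed, Rpl21. Among the other genes 13 of 36, 8 of 112 and 26 of 2508 passed in the same 3 bins.

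The annotated gene of Rpl21 ends at position 146837032, well past its coding end, and the last 300 transcript bases held none of the shared sequence. Over the 150 bases on each side of the coding end, a region chosen after these values were seen, 13.6% of its windows stood in BC004004 or another listed gene. By that measure 6 of 8 members over 50% passed, 3 of 6 with a smaller share, and 0 of 66 with none. Among the other genes 14 of 44, 10 of 83 and 23 of 2529 passed in these bins. Of the listed copies, Rps12-ps3 had 8.90 and 37.8 CPM in A and B and 29.8 and 21.6 CPM in C and D, Rpl10-ps3 had 24.1 to 59.5 CPM over the 4 libraries, Rps27rt had 29.9 to 63.2 CPM and Rpl9-ps6 had 21.9 to 106 CPM, a ratio of 4.86. BC004004, the copy of Rpl21, differed by 6.38 times among the P3 libraries and Gm11361, the copy of Rps18, by 20.4 times. The same copies were listed at E16.5, where Rps12, Rpl10, Rps27 and Rpl9 were counted in every library. How the counting treated reads that match more than 1 gene is not given in the sources used here, and its part in these differences was not tested. For these 6 members the stage test had SEs of 0.50 to 1.17 on the log2 scale and called none, so the 19 and 12 calls above all came from the other 76 tested members.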

How the data were processed

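The authors deposited 10x Genomics matrices of raw UMI counts per gene and barcode. The file headers name 10x software 3.1.0 at E16.5 and 3.0.2 at P3, and the submitters' processing notes list Cell Ranger 2.1.1, R 4.1.2, Seurat and mm10 with no role given. The gene annotation and the treatment of reads that match several genes are not given in the sources used here. From these counts, barcodes were kept from 1000 UMIs up, where mitochondrial genes took no more than 15%, and matrices that shared barcodes were counted once. Genes listed at both stages were used.

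Cells were clustered per stage without the members (scanpy 1.11.5, 2000 variable genes, 30 principal components, Leiden resolution 1) after Scrublet, and named from marker lists. Counts were summed per library, and per library and class where at least 50 cells were present, and tested with edgeR 4.0.16 (quasi-likelihood test, TMM, low-count filter, Benjamini-Hochberg over all genes, or all pairs of class and gene, threshold 0.05). Each p-value sets a difference between groups against the spread between these libraries. In the stage test the libraries of a stage mixed genotypes, and in the genotype test the others mixed Jag1+/+ and Jag1Ndr/+ labels. The procedure was tested on simulated data. Of 100 genes changed 2-fold, 85% were recovered in the stage comparison and 46% in the genotype comparison. At 4-fold 100% were recovered in both. DESeq2 1.42.0, other scalings, filters and clusterings, the replicate number as a block, Xist as a covariate and leaving out each library were the alternatives, and leaving out P3 libraries in pairs was added after seeing the data. Shared 3′ windows of 50 bases came from GENCODE M21 transcripts, and promoters from RefSeq.

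Members were named in the text by these rules: the 10 largest called changes in each direction in whole libraries, the 6 called in most classes in each direction, the 3 smallest p where none was called, the paralogs, the P stalk and Diamond-Blackfan members as groups, the 10 with the most variable share over classes, and the 2 largest changes each way of the other lists. The members split among P3 libraries were named after their values were seen. A few genes that these rules name are not reported here. The members and lists were chosen with earlier results of these data known. The P3 matrices labelled as the second Jag1Ndr/+ and the second Jag1Ndr/Ndr pup, which shared barcodes with libraries A and B, were not used.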

Additional observations from a re-analysis of the deposited data

Results flagged for a closer look

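Of 56 groups of libraries examined for a lone value by Dixon's test, 7 held one. Chance alone gives about 1 in 20 for unrelated groups. These groups share the same libraries and most are members picked by their values here, so the 7 cannot be read against that rate. At P3 library A stood apart 4 times. It was lowest for Rplp0 (4221 CPM), Rpl8 (2542 CPM) and Rpsa (4455 CPM), and highest for Rps10 (2084.5 CPM). Library C was lowest for Rpl39 at 2031 CPM, and library B had the highest share of UMIs on the members, 19.7%. At E16.5 the shared library was highest for Rpl39l, at 6.38 CPM.

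The members' share of UMIs had every P3 library on 1 side of every E16.5 library in 5 cell classes. The P3 mean was higher by 5.97 percentage points in B lymphoid-like cells, by 10.6 in early erythroid-like cells and by 4.64 in promyelocyte-like cells. The P3 minus E16.5 difference was −3.75 points in late erythroid-like cells and −1.97 in mesenchymal-like cells. At E16.5 the promyelocyte-like class included a cluster at 8.26% beside 1 at 24.5%. The B lymphoid-like class pooled clusters whose leading genes differed in part between the stages. With finer clustering neither late erythroid-like nor mesenchymal-like cells were lower without overlap, and with doublets kept mesenchymal-like cells were not. The P3 mesenchymal-like class held a cluster led by Ins2 and Ins1 at 6.30% and a collagen cluster at 16.55%. That these differences differ between classes was not tested.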

How the results depend on the processing

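Between stages in whole libraries, 19 members were called higher and 12 lower. These counts became 47 and 3 on library totals without TMM, 30 higher on totals without globin and the members, 12 and 5 without libraries C and D, and 19 lower without A and B. Leaving out each library gave 12 to 24 higher and 7 to 12 lower. Without TMM, Rpl22 (0.092) was above 0. For genotype within classes, no filter on low counts gave 7 pairs of class and member higher and 2 lower. Leaving out Jag1+/+ replicate 1 gave 7 higher, each of them Rpl29. The share of all genes or pairs called under the settings of this section is not given here, so its counts of calls show only the dependence on the setting. Classes with no overlap between stages numbered 3 higher and 2 lower, and became 5 and 0 at Leiden resolution 2, 1 and 5 without globin, and 4 and 1 with doublets kept. Between libraries C and D, 2 members were higher and 2 lower past 2-fold. At 72753365 UMIs or more a library, depth limits most the rare Rpl3l, Rpl10l and Rpl39l.

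With the replicate number as a block, 18 members were called higher and 12 lower between stages in whole libraries, and 175 and 237 pairs within classes, while genotype gave 0. Deviations of same-numbered libraries correlated with r = 0.31 at E16.5 and −0.04 across stages over 13692 genes. Same-numbered libraries at E16.5 thus shared part of their deviations. The labels do not say what the number stands for, so the libraries are not shown to be pairs.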
